A study of Mus musculus with 6 samples.

Results

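Embryonic stem cells (ESCs) that carried an acidic patch mutant of the histone variant H2A.Z were compared with ESCs that carried wild-type H2A.Z. The comparison set 1 RNA-Seq library, H2A.ZAP3 at D0, against 1 other, H2A.ZWT at D0, out of 6 libraries in the series. Each gene was described by log2((H2A.ZAP3 + 1)/(H2A.ZWT + 1)) of its RPKM, reads scaled to transcript length and library size. A gene was kept when it reached 1 RPKM in at least 1 of the 2 libraries, and 12162 of 21639 gene entries did. At this limit Pkd2l2, with 0.729 RPKM in H2A.ZWT and 1.00064 RPKM in H2A.ZAP3, was just inside. The gene 1520402A15Rik, with 0.999 and 0.826 RPKM, was just outside. A gene was called higher or lower past 1.5-fold. With 1 library in each group there was no replicate, so no p-value or replicate error could be given, and every difference below is one between these libraries.

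Both lines came from KH2 ESCs and were infected with lentivirus that held a transgene with a CMV promoter under rtTA control, switched on with doxycycline. The transgene was H2A.Z fused to YFP in the H2A.ZWT line and the AP3 mutant fused to YFP in the H2A.ZAP3 line, and the induced cells were sorted for YFP. AP3 swaps 3 H2A.Z residues for those of canonical H2A, G92N, D97N and S98K. Both lines also carried a blasticidin-selected hairpin against endogenous H2A.Z, so that neither is an unmodified ESC. The labels give the strain as V6.5 (129SvJaexC57BL/6) and say that the ESCs were male. The cells grew in serum and LIF on irradiated mouse embryonic fibroblasts, which were left out for the last passage. The other libraries were the line labelled H2A.ZKD at D0 and all 3 lines at D3, when the cells had formed embryoid bodies without LIF. A lentiviral transgene integrates where it lands, and whether a line was 1 clone was not given in the sources used here.

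H2A.Z replaces canonical H2A in a subset of nucleosomes, mostly around transcription start sites and at enhancers, and is put in place by the SRCAP and p400 remodelling complexes. The acidic patch is the negatively charged surface of the H2A and H2B pair on the face of the nucleosome, where remodellers and other nucleosome-binding proteins dock, and H2A.Z extends it beyond that of H2A. ESCs grown in LIF and serum hold a mixture of states, from cells with high naive factors to cells with epiblast or primitive endoderm genes on.

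The hairpins are shown because they decide what the H2afz value can and cannot report. Both match the plus strand of H2afz on chromosome 3 (NCBIM37, the assembly of mm9), in the exon that holds its 3′ untranslated region, outside the coding sequence fused to YFP. The names are those of the labels, and the study's methods number the same hairpins otherwise. Which of them each library carried was not given in the sources used here.
sh#2: aacagctgtccagtgttggtg
sh#5: aattagccttccaaccaacca
The first lies at chr3:137529455-137529475 and the second at chr3:137529551-137529571, 47 and 143 bases past the end of the coding sequence. Reads from the transgene's coding part count toward H2afz as well, so its RPKM mixes endogenous and transgenic message. H2afz, the main H2A.Z gene, was at 279 RPKM in H2A.ZWT ESCs, 343 in the library labelled H2A.ZKD and 304 in H2A.ZAP3 ESCs. It was within 1.5-fold between H2A.ZAP3 and H2A.ZWT (log2 ratio 0.12) and was not lower in the library labelled H2A.ZKD. H2afv, which encodes the second H2A.Z isoform, was at 52.2 RPKM in H2A.ZWT and 54.4 in H2A.ZAP3 ESCs (log2 ratio 0.06). These values cannot check the knockdown, since transgene and endogenous reads are summed.

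The libraries differed in depth. From the steps between low RPKM values, H2A.ZWT D0 held about 17 M reads and H2A.ZAP3 D0 about 28.1 M, 1.65 times as many, and these were the shallowest and the deepest of the 6 libraries. At 17 M reads, 1 read on a 2 kb transcript is worth 0.0294 RPKM. All 6 ESC markers listed (Pou5f1, Sox2, Nanog, Zfp42, Utf1 and Dppa5a) were expressed in both lines, with a summed level of 2228 RPKM in H2A.ZWT and 2163 in H2A.ZAP3 ESCs. Markers of trophoblast summed to 2.96 and 2.31 RPKM, and those of epiblast or streak to 2.02 and 1.85 RPKM. Although the ESCs are labelled male, the 8 Y-linked genes listed summed to 2.33 and 2.12 RPKM, with Ddx3y at 0.918 and 1.16 RPKM, Eif2s3y at 1.12 and 0.635, and Zfy1 and Zfy2 at 0 in both lines.

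Most genes were alike in the 2 lines. Of the 12162 genes, 616 (5.06%) were higher and 364 (2.99%) lower in H2A.ZAP3 ESCs past 1.5-fold, 150 and 82 of them past 2-fold, and 91.9% lay within 1.5-fold. The median log2 ratio was 0.00. Among the 6292 genes at 10 RPKM or more in 1 of the libraries, 257 were higher and 136 lower. The share of called genes varied with level. Between 1 and 3 RPKM 6.36% were higher and 5.24% lower, between 30 and 100 RPKM 3.90% were higher and 1.75% lower, and above 100 RPKM 4.72% were higher and 2.36% lower. Short RNA genes (small nucleolar, micro and other structural RNAs), which poly(A)-selected libraries hold poorly, made up 165 of the genes and 35 of the higher and 45 of the lower calls. An approximate 95% interval from read counts, which covers counting error only, lay wholly past 1.5-fold for 335 of the higher and 188 of the lower genes. Every list count below stands beside the 5.06% higher and 2.99% lower over all genes. The 52 lists were chosen with earlier results of these data known, so that their counts describe these libraries and test nothing.

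**Figure D1:**
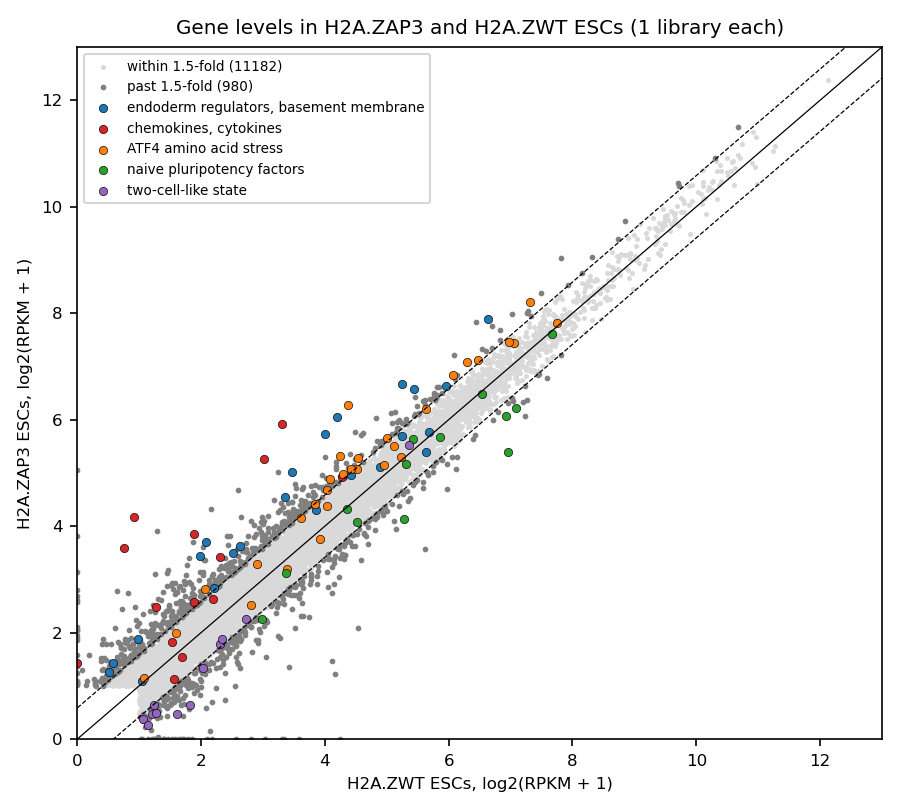
Level of each of the 12162 genes in H2A.ZWT ESCs (x axis) and H2A.ZAP3 ESCs (y axis), both as log2(RPKM + 1), with 1 library per axis. The solid line marks equal levels, the dashed lines 1.5-fold, and colours mark members of 6 gene lists in 5 colours. Endoderm, chemokine and ATF4 genes lie mostly above the line, and naive factors and two-cell-like genes mostly below it.

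Among genes at 10 RPKM or more in the higher library, the 15 with the largest increase were Cxcl5, Ccl5, Slpi, Cxcl1, Ccl2, Rab3il1, Srgn, Ccl7, Nupr1, Lama1, Cubn, Npl, Col4a1, Gata4 and Plac8. Their log2 ratios ran from 1.56 for Plac8 to 3.25 for Cxcl5. Slpi, a secreted inhibitor of leukocyte proteases, was at 1.44 RPKM in H2A.ZWT, 3.34 in the library labelled H2A.ZKD and 13.99 in H2A.ZAP3 ESCs. Rab3il1, a guanine nucleotide exchange factor for Rab3A, was at 3.44, 3.55 and 19.04 RPKM in the same order. Srgn, the proteoglycan core protein serglycin, was at 5.05, 5.69 and 24.5 RPKM. In these 3 genes H2A.ZAP3 stood above both other ESC libraries. Npl, an enzyme that cleaves sialic acid, was at 8.49, 12.9 and 31.3 RPKM, and Plac8 was at 3.11, 4.60 and 11.1 RPKM. For each of the 15 the counting interval lay wholly past 1.5-fold.

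Decreases were ranked among genes at 10 RPKM or more in the higher library, without short RNA genes and symbols shared between entries. The 15 genes with the largest decrease had log2 ratios from -2.44 for Lefty2 to -1.03 for Stk30. They were Lefty2, Lefty1, Klf2, Tagln, Fam25c, Klhl13, Pla2g1b, Krt18, Eras, Igf2, Fos, Dppa3, Fosb, Crip1 and Stk30. They include secreted Nodal inhibitors, a naive factor and AP-1 subunits, which are described with their groups below. Eras, an ESC-expressed Ras protein that is active without a stimulus, was at 15.6 RPKM in H2A.ZWT, 9.27 in the library labelled H2A.ZKD and 6.21 in H2A.ZAP3 ESCs. Klhl13, a substrate adaptor of a CUL3 ubiquitin ligase, was at 61.9, 33.5 and 25.1 RPKM. In both of these the library labelled H2A.ZKD lay between the other 2. Pla2g1b, a secreted phospholipase, was at 16.7, 15.03 and 6.49 RPKM, Fam25c at 11.2, 9.70 and 3.98, and Crip1, a small LIM-domain protein, at 24.9, 17.8 and 11.7. The counting intervals of these 15 genes also lay wholly past 1.5-fold.

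**Figure D2:**
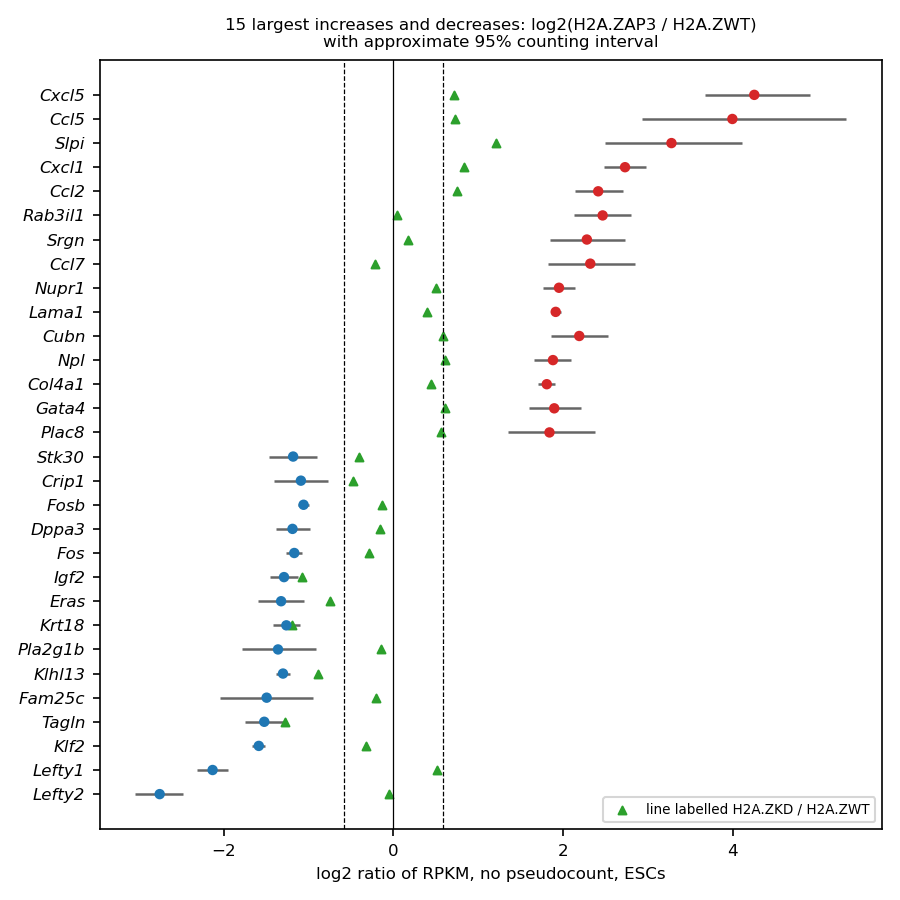
Log2 ratio of RPKM without a pseudocount (x axis) for the 15 genes with the largest increase (red) and the 15 with the largest decrease (blue) in H2A.ZAP3 over H2A.ZWT ESCs. Grey lines are approximate 95% counting intervals, triangles give the library labelled H2A.ZKD over H2A.ZWT, and dashed lines mark 1.5-fold. The triangles of Krt18, Tagln, Igf2 and Klhl13 lie close to the blue points, and those of the genes with an increase lie well to the left of the red points.

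Regulators of primitive endoderm, the extraembryonic layer that GATA factors specify, were higher in H2A.ZAP3 ESCs. Of 14 listed endoderm regulators 9 passed the filter, and 8 of these were higher and none lower (median log2 ratio 0.91, where all genes had 5.06% higher and a median of 0.00). Sox17, Sox7 and Foxa2 reached the filter in H2A.ZAP3 only, so that they could not have been called lower. Over all 14 members without the filter the median was 0.69. Gata4 (chr14:63817752-63864097, mm9), a zinc-finger factor of primitive and definitive endoderm, was at 3.24 RPKM in H2A.ZWT, 4.94 in the library labelled H2A.ZKD and 12.1 in H2A.ZAP3 ESCs. Gata6, which starts the primitive endoderm program, was at 2.96, 4.38 and 9.84 RPKM in the same order. H2A.ZAP3 was the highest of the 3 ESC libraries for both genes, with the library labelled H2A.ZKD second. Without a pseudocount the log2 ratio of H2A.ZAP3 to H2A.ZWT was 1.90 for Gata4, with a counting interval of 1.60 to 2.21, and 1.73 for Gata6, with an interval of 1.49 to 1.98. Sox17, a SOX factor of endoderm, was at 0.974 RPKM in H2A.ZWT and 2.70 in H2A.ZAP3 ESCs.

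The other endoderm regulators called were Sox7, Foxa2, Dab2, Pdgfra and Hhex, with log2 ratios from 0.62 (Hhex) to 1.19 (Dab2). Dab2, an endocytic adaptor needed to sort the primitive endoderm layer, was at 9.25 RPKM in H2A.ZWT, 10.2 in the library labelled H2A.ZKD and 22.4 in H2A.ZAP3 ESCs. Pdgfra, the receptor used to mark this lineage, was at 4.71, 4.78 and 10.2 RPKM. For both, the library labelled H2A.ZKD was at the H2A.ZWT level. Eomes was the member that passed without a call (log2 ratio 0.04). Sox7 and Foxa2 stayed low, at 1.68 and 1.41 RPKM in H2A.ZAP3 ESCs. In bulk RNA, fewer or more cells of a type and less or more RNA per cell cannot be told apart.

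Genes for the basement membrane that primitive endoderm lays down were also called higher. Of 14 basement membrane genes, all of which passed the filter, 8 (57.1%) were higher and none lower, beside 5.06% higher over all genes. The median log2 ratio was 0.84. Lama1, the laminin alpha 1 chain, was at 17.3 RPKM in H2A.ZWT, 22.8 in the library labelled H2A.ZKD and 65.2 in H2A.ZAP3 ESCs. Its ratio of 3.77-fold rests on about 2800 reads in H2A.ZWT and 17432 in H2A.ZAP3. Lamb1, the laminin beta 1 chain, was at 42.6, 48.3 and 94.3 RPKM, and Col4a1, a collagen IV chain, at 14.98, 20.3 and 52.4 RPKM. In each of the 3 genes H2A.ZAP3 stood well above the other 2 ESC libraries, which were within 1.5-fold of each other. Col4a2, Lamc1, P4ha2 (a collagen prolyl hydroxylase), Serpinh1 (the collagen chaperone HSP47) and Sparc were also higher, with log2 ratios from 0.67 for Lamc1 to 1.55 for Col4a2. Sparc was the most abundant of them, at 98.3 RPKM in H2A.ZWT and 237 in H2A.ZAP3 ESCs. Nid2, which links laminin to collagen IV, was the 1 member with a negative ratio (-0.23). Sparc is also in the list of fibroblast genes, and 9 feeder fibroblast markers summed to 32.7 RPKM in H2A.ZWT and 54.6 in H2A.ZAP3 (below).

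Among effector genes of visceral endoderm, the absorptive layer that primitive endoderm forms later, 8 of 14 found passed. Of these, 4 (50%) were higher and none lower, beside 5.06% higher over all genes. The median log2 ratio was 0.65, or 0.20 over all 14 without the filter. Of the 4, Spink3 reached the filter in H2A.ZAP3 only. Cubn and Amn, the 2 parts of the endocytic receptor for intrinsic factor, were at 2.64 and 1.47 RPKM in H2A.ZWT and at 12.03 and 5.22 RPKM in H2A.ZAP3 ESCs. Apoe, a lipid carrier, was at 459 RPKM in H2A.ZWT, 421 in the library labelled H2A.ZKD and 846 in H2A.ZAP3 ESCs. Ttr and Afp, serum proteins of the mature layer, were listed at 0 in both lines. Spink3, a secreted protease inhibitor, was at 0.987, 2.21 and 3.54 RPKM in ESCs and 20.8 RPKM or more in each D3 library.

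**Figure D3:**
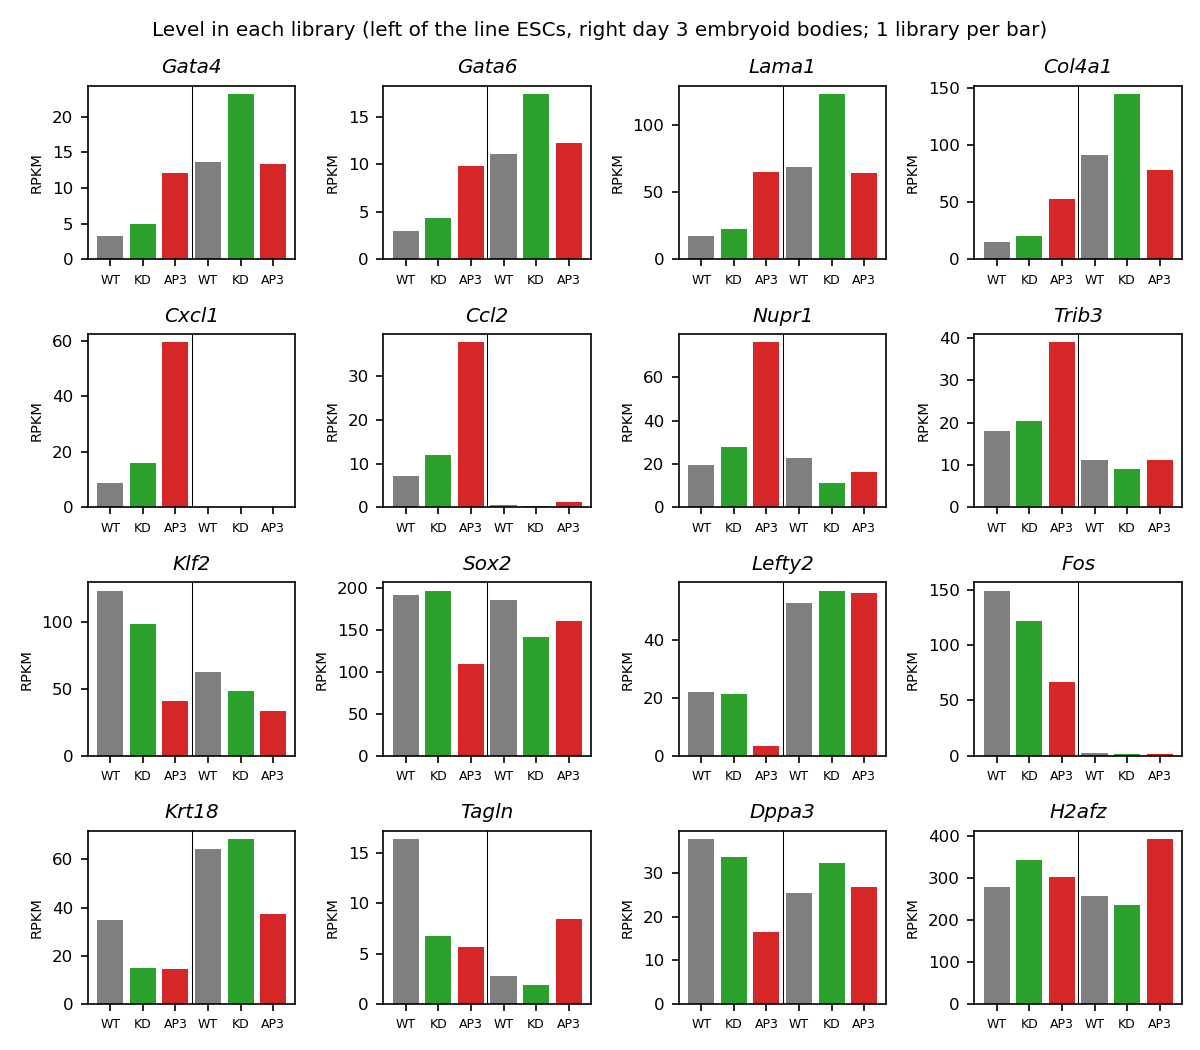
RPKM (y axis, from 0) of 16 genes in each of the 6 libraries, with ESCs left of the vertical line and D3 embryoid bodies right of it; WT, KD and AP3 stand for H2A.ZWT, the line labelled H2A.ZKD and H2A.ZAP3. Gata4, Gata6, Lama1 and Col4a1 stand highest in H2A.ZAP3 among the ESC bars and about as high or higher in all D3 bars, Cxcl1 and Ccl2 are near 0 at D3, and Klf2, Sox2, Lefty2, Fos and Dppa3 are lowest in H2A.ZAP3 among the ESC bars.

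Chemokines, the secreted proteins that draw leukocytes, included 5 of the 15 genes with the largest increase named above. Of 24 chemokine and cytokine genes 14 passed the filter. Of these, 10 (71.4%) were higher and none lower in H2A.ZAP3 ESCs, beside 5.06% higher over all genes. The list's median log2 ratio was 1.16. Cxcl5, Ccl5 and Il6 reached the filter in H2A.ZAP3 only, and over all 24 members without the filter the median was 0.36. Cxcl1 (chr5:91320271-91322139, mm9), a neutrophil attractant, was at 8.94 RPKM in H2A.ZWT, 15.9 in the library labelled H2A.ZKD and 59.3 in H2A.ZAP3 ESCs, and at 0, 0 and 0.226 RPKM in the D3 libraries of these lines. Ccl2, a monocyte attractant, was at 7.05, 11.9 and 37.6 RPKM in ESCs and no higher than 1.15 RPKM at D3. For both genes the order of the ESC libraries was the same, and the D3 libraries were near 0. The counting interval of the Cxcl1 log2 ratio without a pseudocount ran from 2.48 to 2.98. Ccl7, the neighbour of Ccl2 on chromosome 11, was at 2.70, 2.32 and 13.5 RPKM. Cxcl5 was at 0.893, 1.47 and 17.05 RPKM, and Ccl5 at 0.692, 1.15 and 11.04, both from below 1 RPKM in H2A.ZWT.

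The other members called were Cxcl10, Cxcl12, Cxcl16, Il6 and Lif. Il6 was listed at 0 in H2A.ZWT, at 0.507 RPKM in the library labelled H2A.ZKD and at 1.69 RPKM in H2A.ZAP3 ESCs, where about 52 reads support it. Lif, the cytokine that is also added to the medium as protein, was at 3.97, 4.56 and 9.68 RPKM. Cxcl12, the ligand of CXCR4, was at 18.4, 15.4 and 29.2 RPKM. H2A.ZAP3 was the highest ESC library for all 3. Tnf, Il1b and Ccl20 were at or near 0 in both lines, with 0.0351 and 0 RPKM for Tnf.

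Genes that NF-kB induces, among them its own inhibitors, held 1 call. Of 14 NF-kB feedback genes that passed, 1 was higher, the adhesion molecule Vcam1, at 3.16 RPKM in H2A.ZWT, 2.47 in the library labelled H2A.ZKD and 9.31 in H2A.ZAP3 ESCs. Nfkbia, which encodes the inhibitor IkBa, was at 33.7 and 50.6 RPKM in H2A.ZWT and H2A.ZAP3 (log2 ratio 0.57), Tnfaip3 at 3.52 and 5.32 (0.48), and the subunit gene Nfkb1 at 12.3 and 13.5 (0.13). None of these 3 passed 1.5-fold with the pseudocount of 1 RPKM. Without a pseudocount Nfkbia and Tnfaip3 were just past 1.5-fold, at 1.501-fold and 1.509-fold. With a pseudocount of 0.1 the list still held 1 member higher, and with 0.001 it held 3. Of the 14 members 12 had a positive ratio, and the list's median log2 ratio was 0.26.

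Promoter windows of the chemokine and cytokine genes are shown because 10 members of the list were called higher. In the RefSeq promoters used here (GRCm38.p6, 250 bases before to 50 after a start), 5.14% of 27025 symbols held the NF-kB consensus on either strand, and 6.498% of the 8572 symbols that passed the filter. Of 17 list members with a promoter in that table, 7 held it, and of the 5 among them that were called higher 3 did. Those 3 windows follow, written on the strand where the consensus reads forward, with the consensus in capitals.
Cxcl1: ctccgggccaGGGAAATTCCcggagtacag
Cxcl10: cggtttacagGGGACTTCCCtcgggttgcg
Il6: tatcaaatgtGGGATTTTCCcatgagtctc
The windows lie at chr5:90891165-90891194 (minus strand), chr5:92348973-92349002 (minus strand) and chr5:30013060-30013089 (plus strand), with the consensus 60, 93 and 34 bases before the start. Cxcl2, Ccl9, Ccl20 and Csf1, whose promoters held it too, were not called. A match describes the letters of the window, and binding was not measured in these libraries.

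Interferon-stimulated genes were called in both directions. The 7 called higher were below 5 RPKM in both lines, while the list of 24 summed to 504 RPKM in H2A.ZWT and 538 in H2A.ZAP3. Of 19 members that passed, 7 (36.8%) were higher and 2 (10.5%) lower, beside 5.06% and 2.99% over all genes. The higher ones were Ifit1, Isg15, Ifit3, Ifi44, Rsad2, Usp18 and Cxcl10, and the lower ones Irf1 and Ifitm1. The median log2 ratio was 0.41, or 0.37 over all 24 members without the filter. Isg15, Ifit3, Ifi44, Rsad2 and Usp18 reached the filter in H2A.ZAP3 only, so that they could not have been called lower. Ifit1, an antiviral RNA-binding protein, was at 1.38 RPKM in H2A.ZWT, 0.514 in the library labelled H2A.ZKD and 4.24 in H2A.ZAP3 ESCs. Rsad2, the antiviral enzyme viperin, was at 0.770, 0.316 and 2.62 RPKM. For both, the library labelled H2A.ZKD lay lowest. Isg15, a ubiquitin-like modifier, was at 0.809 and 2.35 RPKM in H2A.ZWT and H2A.ZAP3, and Irf7, an interferon-induced transcription factor, at 0.154 and 0.591 RPKM, below the filter. Ifitm1, abundant in ESCs, was at 84.6 RPKM in H2A.ZWT, 57.8 in the library labelled H2A.ZKD and 51.6 in H2A.ZAP3 ESCs, and the transcription factor Irf1 was at 15.7, 17.97 and 9.42 RPKM.

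Fibroblast markers were higher in the same library as the chemokines. The 9 feeder fibroblast markers summed to 32.7 RPKM in H2A.ZWT, 27.04 in the library labelled H2A.ZKD and 54.6 in H2A.ZAP3 ESCs, and 5 of the 9 were higher past 1.5-fold in H2A.ZAP3. Postn was at 0 in H2A.ZAP3 and Lum at 0 in H2A.ZWT. Of the 22 fibroblast and interstitial collagen genes that passed, 11 (50%) were higher and none lower, beside 5.06% higher over all genes. The median log2 ratio was 0.53, and Dcn and Col5a2 reached the filter in H2A.ZAP3 only. Col1a1, a collagen I chain, was at 9.76, 7.42 and 15.5 RPKM in H2A.ZWT, the library labelled H2A.ZKD and H2A.ZAP3, Col1a2, the other chain, at 12.9, 11.8 and 22.5, and Col3a1, a collagen III chain, at 1.28, 1.06 and 2.47. Twist1, Prrx1, Dcn, Col5a2, Mmp2, Lox, Sparc and Loxl1 were the other members called. Thy1 was at 1.74 RPKM in H2A.ZWT and 1.74 in H2A.ZAP3, and Fn1, which ESCs and endoderm also express, at 123 and 145 RPKM. Of the macrophage and blood genes, Laptm5, a lysosomal membrane protein, was at 23.5 and 53.1 RPKM and the endotoxin co-receptor Cd14 at 0.590 and 1.66 RPKM, while the markers Ptprc, Cd68 and Csf1r were at 0.0498, 10.7 and 0.121 RPKM in H2A.ZWT and 0, 11.2 and 0.0169 in H2A.ZAP3. The part of feeder-derived RNA in the endoderm, basement membrane, chemokine, cytokine and collagen differences was not tested.

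**Figure D4:**
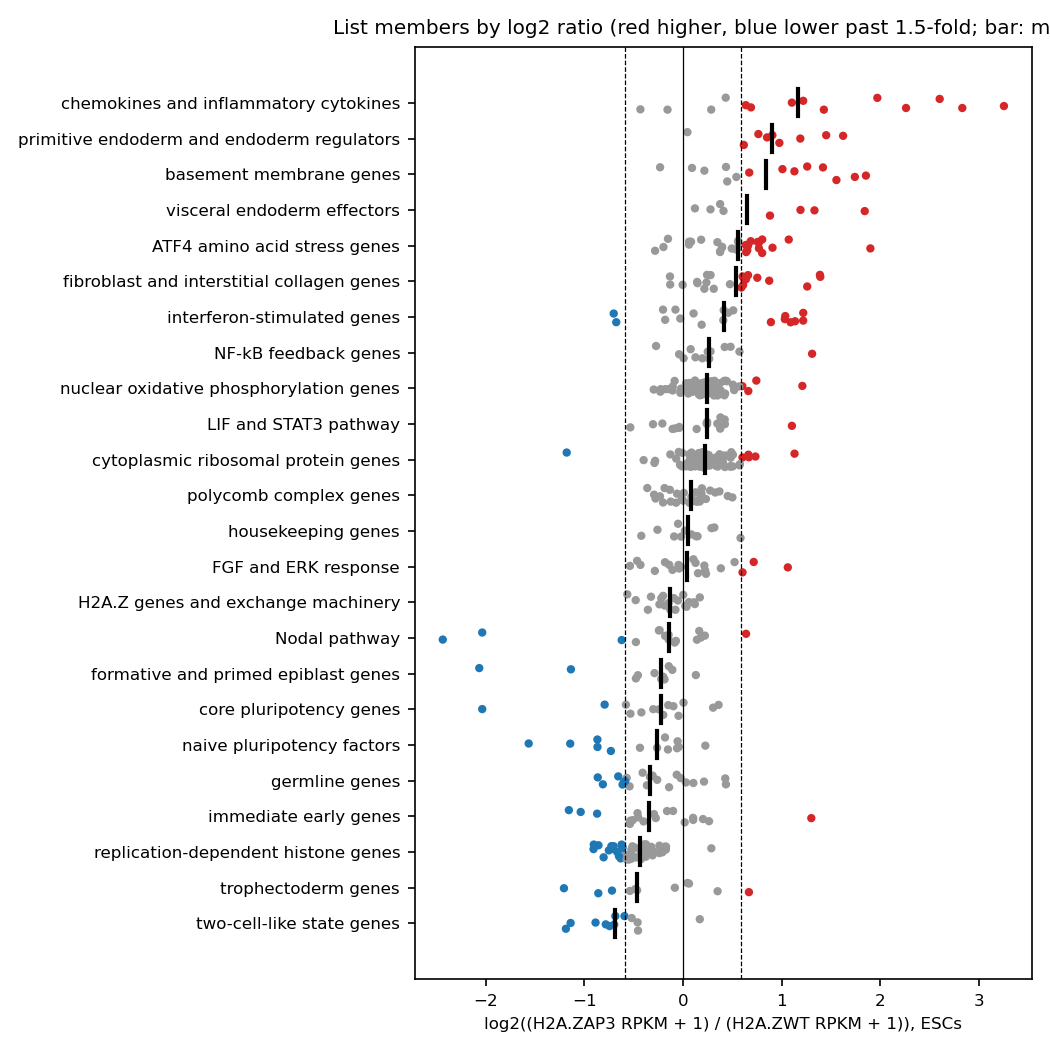
Log2 ratio of H2A.ZAP3 over H2A.ZWT in ESCs (x axis, pseudocount of 1 RPKM) for the members of 24 gene lists that passed the filter, 1 point per gene. Red points were higher and blue points lower past 1.5-fold (dashed lines). Black bars give list medians, which run from 1.16 for chemokines to -0.69 for two-cell-like genes. Over all members without the filter these medians were 0.36 and -0.46.

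Targets of ATF4, the transcription factor that cells induce when amino acids are short or eIF2a is phosphorylated, were higher in part, and Atf4 itself was not called. Of 30 such genes, all of which passed, 13 (43.3%) were higher and none lower, beside 5.06% higher over all genes. The median log2 ratio was 0.56. Atf4 was at 214 RPKM in H2A.ZWT and 223 in H2A.ZAP3 ESCs. Asns, asparagine synthetase, was at 157 RPKM in H2A.ZWT, 179 in the library labelled H2A.ZKD and 296 in H2A.ZAP3 ESCs. Trib3, a pseudokinase that feeds back on ATF4, was at 18.01, 20.5 and 38.96 RPKM, and Chac1, which degrades glutathione, at 15.3, 21.9 and 24.6 RPKM. H2A.ZAP3 was the highest ESC library for all 3, and for Chac1 the library labelled H2A.ZKD came close to it. Nupr1, a small stress-induced chromatin protein, had the largest change, from 19.6 RPKM in H2A.ZWT and 27.8 in the library labelled H2A.ZKD to 76.02 RPKM in H2A.ZAP3 ESCs.

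The stress regulator Ddit3 (CHOP), the folate enzyme Mthfd2, the amino acid transporter Slc7a5, and Stc2, Ddit4, Gpt2, Pck2, Cth and Vegfa were also higher, with log2 ratios between 0.64 and 0.80. Asns and Mthfd2 lie on chromosome 6, whose genes were shifted upward as a whole (below). The serine synthesis genes Phgdh, Psat1 and Psph were not called. Phgdh, the first enzyme of that pathway, was at 48.9 RPKM in H2A.ZWT, 74.2 in the library labelled H2A.ZKD and 72.4 in H2A.ZAP3 ESCs. Of 15 unfolded protein response genes none was higher and 1, the chaperone partner Dnajb9, was lower (24.2 and 15.7 RPKM). The endoplasmic reticulum chaperone genes Hspa5 and Hsp90b1 were at 232 and 302 RPKM in H2A.ZWT and 269.6 and 316 in H2A.ZAP3, and Xbp1 at 18.1 and 23.6. With a 2-fold threshold 2 ATF4 genes stayed past it, Nupr1 and Trib3.

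A composite C/EBP and ATF motif is shown for the ATF4 list because 13 of its members were called higher. TGATGNAA on either strand was present in the promoters of 4.51% of the 27025 symbols and of 2.75% of the 8572 that passed the filter. It was present in 8 of the 26 ATF4 list members with a promoter in the table, and in 5 of the 11 among them that were called higher. Their windows, with the motif in capitals, are written on the strand where it reads forward.
Nupr1: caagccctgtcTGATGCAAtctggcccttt
Asns: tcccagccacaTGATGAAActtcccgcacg
Trib3: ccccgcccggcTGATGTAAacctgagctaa
Chac1: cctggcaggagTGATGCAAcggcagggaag
Pck2: ctgtaagatacTGATGTAActttgaaggct
They lie at chr7:126625562-126625591 (plus), chr6:7693214-7693243 (minus), chr2:152344028-152344057 (plus), chr2:119351038-119351067 (minus) and chr14:55540152-55540181 (minus) of GRCm38.p6. The motif stood 102, 15, 185 and 95 bases before the start in Nupr1, Asns, Chac1 and Pck2, and 14 bases past the start in Trib3. Slc7a11, Pycr1 and Vldlr held it and were not called, with log2 ratios of -0.28, 0.38 and 0.39.

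Part of the naive pluripotency network was lower in H2A.ZAP3 ESCs. Of 13 naive factors, all of which passed, 5 were lower and none higher (median log2 ratio -0.26), beside 2.99% lower over all genes. Klf2, a Kruppel-like factor of the naive state, was at 123 RPKM in H2A.ZWT, 98.6 in the library labelled H2A.ZKD and 41.1 in H2A.ZAP3 ESCs. Klf4, which acts beside it, was at 121, 131 and 65.9 RPKM, and Nanog, whose entry also covers Nanogpd, at 136, 115 and 73.9 RPKM. H2A.ZAP3 was the lowest ESC library for these 3 genes. Prdm14, a repressor of FGF signalling, fell from 6.93 to 3.78 RPKM, and Dppa3, a maternal factor of naive cells, from 37.9 to 16.6 RPKM. Esrrb, Zfp42, Tbx3 and Klf5 stayed within 1.5-fold, with Esrrb, an orphan nuclear receptor of the naive network, at 92.2 and 88.7 RPKM. The counting interval of the Klf2 log2 ratio without a pseudocount ran from -1.66 to -1.51.

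The core factors split as well. Of 14 core pluripotency genes 2 (14.3%) were lower, Sox2 and Lefty1, beside 2.99% lower over all genes. The median log2 ratio was -0.22. Sox2 was at 191 RPKM in H2A.ZWT, 196 in the library labelled H2A.ZKD and 109.7 in H2A.ZAP3 ESCs. Pou5f1, its partner on DNA, was at 421, 413 and 540.5 RPKM, and Sall4 at 47.6, 50.7 and 42.8. The ratio of Pou5f1 to H2A.ZWT was thus above 0 (0.36) where that of Sox2 was below it (-0.79).

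Genes of the later epiblast were not higher either. Of 11 formative and primed epiblast genes that passed, none was higher and 2 (18.2%) were lower, beside 2.99% lower over all genes. Otx2, a homeobox factor of the formative state, was at 4.22 RPKM in H2A.ZWT, 5.14 in the library labelled H2A.ZKD and 1.37 in H2A.ZAP3 ESCs, and Zic2, a zinc-finger factor that binds its enhancers, at 9.76, 6.51 and 1.57 RPKM. Fgf5, the marker of primed cells, was at 0.539, 1.11 and 0.106 RPKM, and Pou3f1 at 4.22, 5.70 and 3.27. Otx2 and Zic2 were lowest in H2A.ZAP3 ESCs, as were Fgf5 and Pou3f1, which were not called. At D3 Otx2 and Zic2 reached 22.3 and 18.02 RPKM in H2A.ZWT and 17.5 and 20.4 RPKM in H2A.ZAP3, with log2 ratios of -0.33 and 0.17.

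The LIF and STAT3 pathway, which holds the naive state in these media, held 1 call. Of 17 of its genes Lif was higher, and 10 had a positive ratio (median log2 ratio 0.24). The receptor genes Lifr and Il6st were at 18.4 and 21.4 RPKM in H2A.ZWT and 17.02 and 25.6 in H2A.ZAP3 ESCs, Stat3 at 19.96 and 26.2, and its target Socs3 at 54.6 and 47.1. In the FGF and ERK response list, Etv4, Etv1 and Dusp4 were higher of 22 that passed and none was lower (median log2 ratio 0.04). Dusp4, an ERK phosphatase, was at 19.8, 21.2 and 33.2 RPKM in H2A.ZWT, the library labelled H2A.ZKD and H2A.ZAP3. Etv1, an ETS factor, was at 5.56, 6.01 and 8.97 RPKM, while its relatives Etv5 and the inhibitor Spry4 stayed within 1.5-fold (-0.04 and -0.02).

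Lefty1 and Lefty2, the secreted inhibitors that Nodal and SMAD2/3 signalling induces against itself, had the largest decreases of the well expressed genes ranked above. Lefty2 (chr1:182823250-182829233, mm9) was at 22.1 RPKM in H2A.ZWT, 21.3 in the library labelled H2A.ZKD and 3.27 in H2A.ZAP3 ESCs. Lefty1, its neighbour (chr1:182865170-182868532, mm9), was at 47.8, 68.4 and 10.9 RPKM. H2A.ZAP3 stood below both other ESC libraries for both genes, and Lefty2 was 6.76-fold lower than in H2A.ZWT. At D3 the 3 lines held 52.7, 57.1 and 56.3 RPKM of Lefty2. Nodal, the ligand, was at 14.8 and 10.4 RPKM in H2A.ZWT and H2A.ZAP3 (log2 ratio -0.48), and Skil, a SMAD-induced corepressor, fell from 29.03 to 18.5 RPKM. Foxh1, the SMAD partner on DNA, rose from 16.4 to 26.1 RPKM. The 16 Nodal pathway genes that passed held 1 higher and 3 lower, with a median log2 ratio of -0.15.

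Among immediate early genes, which growth factors and serum induce within minutes, Fos, Fosb and Egr1 were lower. Fos was at 149 RPKM in H2A.ZWT, 122 in the library labelled H2A.ZKD and 66.3 in H2A.ZAP3 ESCs, Fosb at 68.3, 62.03 and 32.7, and Egr1 at 146, 116 and 79.5 RPKM. The library labelled H2A.ZKD lay between the other 2 for each of these. Jun, their dimer partner, was at 52.2 and 36.4 RPKM in H2A.ZWT and H2A.ZAP3 (log2 ratio -0.51). Ier3, an anti-apoptotic early gene, went the other way, from 15.03 to 38.5 RPKM. Of the 20 genes, 3 (15%) were lower and 1 (5%) higher, beside 2.99% and 5.06% over all genes. The median log2 ratio was -0.35. Fos and Fosb were at or under 1.99 RPKM at D3 in all lines.

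Two-cell-like genes, which a small and fluctuating share of ESCs turns on, were lower. Of 12 that passed, 8 (66.7%) were lower and none higher, beside 2.99% lower over all genes. The median log2 ratio was -0.69, and -1.35 with a pseudocount of 0.1. Of the 8, 7 reached the filter in H2A.ZWT only, and over all 21 members without the filter the median was -0.46. Zscan4c was at 2.07 RPKM in H2A.ZWT, 2.59 in the library labelled H2A.ZKD and 0.392 in H2A.ZAP3 ESCs, Zscan4d at 1.10, 1.51 and 0.304, and Zscan4f at 2.55, 2.96 and 0.558. All 6 Zscan4 genes named a to f were called, but they are near-identical copies whose reads the counting may have shared, so that their values are not independent and are uncertain one by one. Gm5662 and Usp26 were the other 2. H2A.ZAP3 was the lowest ESC library for the Zscan4 genes, and with a filter of 5 RPKM no member of the list was called.

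Germline genes, many of which DNA methylation keeps silent in somatic cells, were also lower in part. Of 21 that passed, 6 (28.6%) were lower (Tex19.2, Rhox6, Rhox9, Tuba3a, Stag3 and Tdrd12) and none higher, beside 2.99% lower over all genes. The median log2 ratio was -0.34, or -0.26 over all 30 entries without the filter. Of the 6, Tex19.2 reached the filter in H2A.ZWT only and could not have been called higher. Tdrd12, a tudor protein of the piRNA pathway, was at 15.6 RPKM in H2A.ZWT, 11.5 in the library labelled H2A.ZKD and 10.1 in H2A.ZAP3 ESCs. Stag3, the meiotic cohesin subunit, was at 9.09, 6.84 and 5.66 RPKM. In both genes the library labelled H2A.ZKD lay between the other 2. Dazl, Ddx4 and Sycp3, the first genes of the list, were at 2.46, 12.5 and 14.4 RPKM in H2A.ZWT and 1.74, 12.2 and 16.9 in H2A.ZAP3, with no call. At D3 the median of the same 21 genes was -0.36.

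Replication-dependent histone genes have messages that end in a stem loop in place of a poly(A) tail, and these libraries were oligo(dT)-selected. Of 56 that passed, 14 (25%) were lower and none higher in H2A.ZAP3 ESCs, beside 2.99% lower over all genes. The median log2 ratio was -0.44, and 55 of the 56 had a negative ratio. The count of 14 became 32 and 34 with pseudocounts of 0.1 and 0.001. It was 0 with a filter of 5 RPKM or a 2-fold threshold, and 2 with a counting interval wholly past 1.5-fold. The filter was reached in H2A.ZWT only by 19 of the 56, and over all 67 entries without it the median was -0.42. Of those called, Hist1h1b, Hist1h2bn, Hist1h3b, Hist1h3d, Hist1h3e, Hist1h3f and Hist2h4 were among the 19 and could not have been called higher. The 14 were Hist1h1b, Hist1h2bc, Hist1h2bn, Hist1h3b, Hist1h3d, Hist1h3e, Hist1h3f, Hist1h4c, Hist1h4h, Hist1h4k, Hist1h4m, Hist1h4n, Hist2h2bb and Hist2h4. Each was below 5 RPKM in both lines, from 1.13 RPKM (Hist2h4) to 4.98 RPKM (Hist1h4n) in H2A.ZWT. The linker histone genes Hist1h1a, Hist1h1b and Hist1h1c were at 2.17, 1.91 and 2.42 RPKM in H2A.ZWT, 4.67, 3.73 and 4.10 in the library labelled H2A.ZKD and 1.45, 0.889 and 3.17 in H2A.ZAP3. Uncalled members were far more abundant, such as Hist1h2ad at 83.98, 75.2 and 61.5 RPKM and Hist1h2af at 80.3, 74.3 and 56.9 RPKM in the same order, and H2A.ZAP3 was the lowest of the 3 for both. These H2A genes are near-identical copies, so the split of their reads is uncertain. The list summed to 1088, 1086 and 778 RPKM. The median ratio of the library labelled H2A.ZKD to H2A.ZWT was 0.46, while its sum was nearly the same as in H2A.ZWT and the abundant H2A members had small negative ratios (-0.16 for Hist1h2ad). The part of the oligo(dT) selection in these values was not tested.

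In another set of genes the library labelled H2A.ZKD was as low as H2A.ZAP3. Krt18, a keratin of simple epithelia, was at 34.6 RPKM in H2A.ZWT, 15.1 in the library labelled H2A.ZKD and 14.4 in H2A.ZAP3 ESCs, and its partner Krt8 at 31.1, 17.5 and 18.5 RPKM. Tagln, an actin-binding protein that SRF drives, was at 16.4, 6.74 and 5.70 RPKM, and Igf2, the imprinted growth factor, at 17.8, 8.46 and 7.28 RPKM. In these 4 genes H2A.ZWT stood above the other 2 ESC libraries, which differed by less than 1.5-fold from each other. Krt7 was lower too (4.11, 2.44 and 1.82 RPKM), so that 3 keratins made up the lower calls of the 11 trophectoderm genes that passed. Tead4, the TEAD factor of that list, was higher (0.67) and lies on chromosome 6, while Cdx2, Gata3 and Elf5 were below 1 RPKM in both lines. Peg10 and Ndn, 2 other imprinted genes, were lower with log2 ratios of -0.77 and -0.77, and Sgce, Grb10 and Dcn higher (0.66, 0.61 and 1.39), with 28 imprinted genes passing in all.

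Calls in other signalling pathways stand beside 5.06% higher and 2.99% lower over all genes. Called shares were 13.3% higher for the BMP list, 6.25% lower for WNT, 6.67% lower for Notch, and 9.09% each way for retinoic acid. Id1, the BMP target that blocks bHLH factors, was at 7.42 RPKM in H2A.ZWT, 10.96 in the library labelled H2A.ZKD and 17.2 in H2A.ZAP3 ESCs, while its paralogs Id2 and Id3 were at 12.2 and 18.97 RPKM in H2A.ZWT and 9.59 and 15.4 in H2A.ZAP3. Grem1, a secreted BMP antagonist, was also higher, at 9.68, 5.15 and 16.2 RPKM, and these were the 2 calls among 15 BMP pathway genes. Of 16 WNT ligands and targets 1 was lower, the ligand Wnt4 (1.19 and 0.292 RPKM), and of 15 Notch pathway genes 1 was lower, the target Hey1 (2.04 and 0.948 RPKM), both of which reached the filter in H2A.ZWT only. Stra8, a retinoic acid target of the germline, was at 4.96, 11.2 and 1.72 RPKM in H2A.ZWT, the library labelled H2A.ZKD and H2A.ZAP3, and Cyp26b1, which degrades retinoic acid, went from 0.318 to 1.46 RPKM, the calls among 11 retinoic acid pathway genes. Axin2, a general WNT target, was at 2.91 and 3.25 RPKM in H2A.ZWT and H2A.ZAP3, and Notch1 at 8.84 and 7.77 RPKM.

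Calls in lists of metabolism and the cell cycle stand beside 5.06% higher and 2.99% lower over all genes. Called shares were 9.4% higher and 3.1% lower for glycolysis and hypoxia, and 12% higher for p53 targets. Cyclins, Myc genes and CDK inhibitors had 3.33% each way. Slc2a3, a neuronal-type glucose transporter gene on chromosome 6, was at 284 RPKM in H2A.ZWT, 308 in the library labelled H2A.ZKD and 429.8 in H2A.ZAP3 ESCs, and the mitophagy receptor Bnip3 at 29.7, 37.7 and 17.9 RPKM. With Vegfa and P4ha2, these gave 3 higher and 1 lower of 32 glycolysis and hypoxia genes (median log2 ratio -0.06). The glycolytic enzyme genes Pgk1 and Ldha were at 397 and 366 RPKM in H2A.ZWT and 392 and 311 in H2A.ZAP3. Mat2a, which makes S-adenosylmethionine, was lower at 130.3, 175 and 80.5 RPKM, and Tdh, the threonine dehydrogenase that ESCs depend on, was at 142, 142 and 143 RPKM without a call. Ccnd3, a D-type cyclin, was higher at 67.00, 68.9 and 112 RPKM and Mycn, the ESC member of the Myc family, lower at 58.5, 63.9 and 36.9 RPKM. The other D-type cyclins Ccnd1 and Ccnd2 were at 31.8 and 9.11 RPKM in H2A.ZWT and 27.9 and 9.97 in H2A.ZAP3. Of 25 p53 target genes 3 were higher and 20 had a positive ratio (median log2 ratio 0.18), where 5.06% of all genes were higher. The 3 were Perp (15.01 and 24.5 RPKM), Fas (0.370 and 1.45) and Gdf15 (4.15 and 8.30), of which Fas reached the filter in H2A.ZAP3 only. Cdkn1a, the main p53 target in arrest, was at 41.7 and 57.9 RPKM, and Mdm2 at 74.8 and 86.8.

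Small shifts ran through large gene families. Of 82 ribosomal protein genes 72 had a positive ratio, with a median log2 ratio of 0.22, but 5 passed 1.5-fold upward (among them Rpl22l1, Rpl3, Rpl32 and Rpl36) and 1, the paralog Rpl39l, downward. These shares, 6.10% and 1.22%, stood beside 5.06% and 2.99% over all genes. Rpl22l1 was at 66.6 RPKM in H2A.ZWT, 73.9 in the library labelled H2A.ZKD and 147 in H2A.ZAP3 ESCs. Of the first members of that list, Rpl10 was at 720.1 and 909.5 RPKM in H2A.ZWT and H2A.ZAP3, Rpl10a at 584 and 722, and Rpl10l at 6.33 and 4.56. Nuclear genes of oxidative phosphorylation had a median of 0.24, 68 of 78 positive, and 4 called higher (Atp5k, Ndufa3, Ndufb2 and Ndufb6). That is 5.13%, near the 5.06% over all genes. Ndufb2, a complex I subunit gene on chromosome 6, was at 27.4, 44.6 and 64.6 RPKM. Ribosomal protein genes have many near-identical pseudogenes, so the split of their reads is uncertain.

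Lists of the machinery that handles H2A.Z, and of the complexes that write the marks around it, held no calls. None of 21 H2A.Z and exchange genes, 29 polycomb genes, 15 H3K4 methyltransferase complex genes, 15 DNA methylation genes or 14 H3.3 genes and chaperones passed 1.5-fold at D0. Srcap and Mrgbp of the first list and Setd1b and Mll4 of the H3K4 list were not found by symbol and not analysed here. Ino80, a remodeller of H2A.Z nucleosomes, was the member of the first list nearest to the threshold, at 12.7 and 8.28 RPKM (log2 ratio -0.56), and with a pseudocount of 0.1 or 0.001 the H2A.Z list held 1 lower call. The median log2 ratios of these lists ran from -0.19 for the H3K4 list to 0.08 for the polycomb list. Ezh2, the H3K27 methyltransferase, was at 85.9 RPKM in H2A.ZWT and 95.9 in H2A.ZAP3 ESCs, with its partners Eed at 50.7 and 56.8 and Suz12 at 79.3 and 64.5. Among DNA methyltransferases, Dnmt1 was at 55.5 and 46.2 RPKM, Dnmt3a at 29.4 and 25.1, and Dnmt3b at 34.00 and 30.7. Wdr5, Ash2l and Rbbp5, shared subunits of the H3K4 methyltransferase complexes, were at 69.9, 141 and 22.4 RPKM in H2A.ZWT and 61.3, 155 and 18.3 in H2A.ZAP3. Ep400, the motor of a complex that deposits H2A.Z, was at 17.6 RPKM in H2A.ZWT and 13.5 in H2A.ZAP3 ESCs (log2 ratio -0.36). None of 12 housekeeping genes was called (median 0.05), with log2 ratios from -0.42 for Actb to 0.58 for B2m. B2m was just under the threshold.

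The genes of chromosome 6 were shifted upward as a group. Of its 563 genes that passed, 59 (10.5%) were higher and 9 lower in H2A.ZAP3 ESCs, and 69.8% had a positive ratio. Their median log2 ratio was 0.14, while the medians of the 19 other chromosomes with 100 genes or more lay between -0.04 and 0.04. With no filter on low values the chromosome 6 median was 0.06. In 6 windows of 25 Mb along chromosome 6 (mm9) the median lay between 0.10 and 0.23. At D3 the median of the same chromosome 6 genes was 0.21, and the other chromosomes lay between -0.05 and 0.12, with the highest on chromosome 8. The library labelled H2A.ZKD had a median of -0.12 over H2A.ZWT on chromosome 6 in ESCs, where the other chromosomes lay between -0.07 and 0.00. Of the genes named above as higher, Asns, Mthfd2, Cxcl12, Col1a2, Rpl32, Ndufb2, Tead4, Slc2a3, Sgce, Usp18 and Cyp26b1 lie on chromosome 6. So do Nanog, Dppa3, Mat2a, Peg10, Stra8 and Tuba3a, which were lower, and Ezh2 and Ccnd2, which were not called. The copy number of the chromosome in these lines was not tested.

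**Figure D5:**
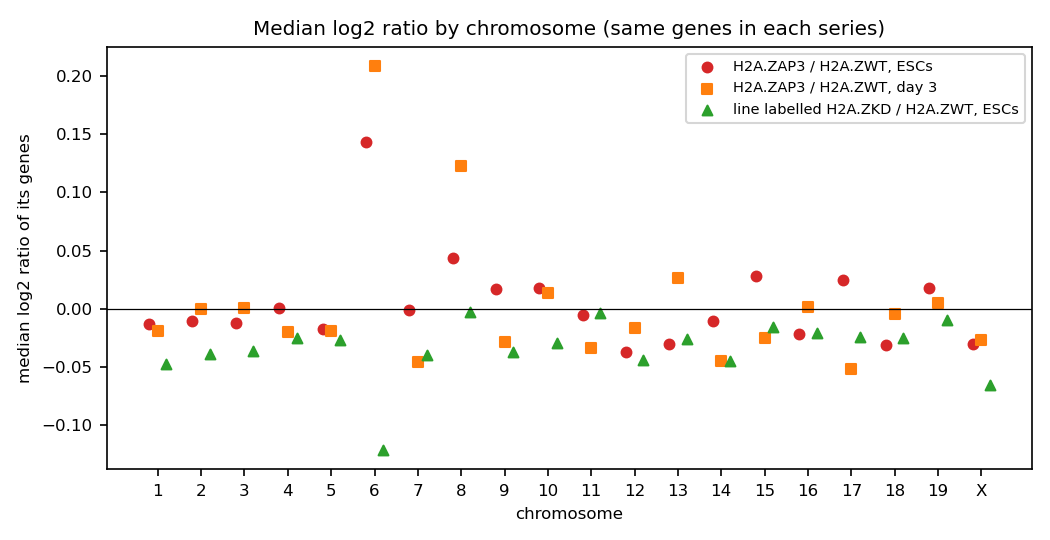
Median log2 ratio (y axis) of the genes on each chromosome with 100 or more genes (x axis), for H2A.ZAP3 over H2A.ZWT in ESCs and at D3 and for the line labelled H2A.ZKD over H2A.ZWT in ESCs. Chromosome 6 stands apart in all 3, at 0.14, 0.21 and -0.12, and chromosome 8 is second at D3.

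The same lines at D3 are given beside these values, in libraries of their own. There 276 (2.3%) of 11981 genes were higher and 339 (2.83%) lower in H2A.ZAP3 than in H2A.ZWT. Of the 616 genes higher at D0, 27 were higher and 26 lower at D3, and of the 364 genes lower at D0, 26 were higher and 51 lower. The endoderm regulators, which had a median log2 ratio of 0.91 at D0, had 0.12 at D3 over the same genes, and the basement membrane genes had -0.18. Gata4 was at 13.7 RPKM in H2A.ZWT, 23.2 in the library labelled H2A.ZKD and 13.3 in H2A.ZAP3 at D3, and Lama1 at 69.02, 123 and 64.7 RPKM. In H2A.ZWT both genes were thus higher at D3 than in ESCs, and the H2A.ZAP3 level in ESCs (12.1 and 65.2 RPKM) was close to the D3 level of H2A.ZWT and H2A.ZAP3. The ATF4 list had a median of 0.05 at D3. The chemokines had 0.19 over the members that passed at D0 and -0.07 over the 7 that passed at D3, with none called at D3. The naive factors kept a negative median (-0.31), with Klf2 at 63.00, 48.3 and 33.3 RPKM in H2A.ZWT, the library labelled H2A.ZKD and H2A.ZAP3. Sox2 was at 186, 141 and 160.2 RPKM at D3, within 1.5-fold of each other, where H2A.ZAP3 had been the lowest at D0. Nupr1, highest in H2A.ZAP3 at D0, was at 22.7, 11.3 and 16.4 RPKM at D3. Tagln, lower in H2A.ZAP3 at D0, was at 2.80, 1.90 and 8.41 RPKM at D3, and Igf2 at 7.23, 8.19 and 15.6 RPKM. In these 2 genes H2A.ZAP3 stood above H2A.ZWT at D3. Krt18, lower in H2A.ZAP3 at both days, was at 64.4, 68.4 and 37.3 RPKM and Dppa3 at 25.5, 32.5 and 26.8 RPKM.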

How the data were processed

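RNA was oligo(dT)-selected and sequenced in 1 library for each of 3 ESC lines at D0 and D3. The authors deposited RPKM values per gene on mm9, and the submitters' processing notes name TopHat 1.14, Bowtie 0.12.7 and Cufflinks 1.3.0. The 6 deposited columns of log2 ratios hold the authors' own comparisons and were not used. Columns were matched to conditions by name.

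Ratios were log2((RPKM + 1)/(RPKM + 1)) of H2A.ZAP3 over H2A.ZWT, over genes at 1 RPKM or more in either library, with a gene called past 1.5-fold. The pseudocount understates the change of low genes. Named were the 15 largest increases and 15 largest decreases among genes at 10 RPKM or more in the higher library, leaving out symbols carried by more than 1 entry (420 entries share a symbol) and short RNA genes, and of each list described its first 3 members and those called, except that 1 called gene is not reported here. The genes compared and the 52 gene lists were chosen with earlier results of these data known. Coordinates are those of the deposited table, with starts raised by 1, and RefSeq promoter windows carry their own build, GRCm38.p6, so that no coordinate was moved between builds. Depth was read from the steps between low RPKM values (0.5 to 3.5 reads, searched from 10 to 40 M) of 3696 genes with 1 transcript over 1.5 kb, and 95% exact intervals of the ratio of 2 read counts, which cover counting error only, follow from it. With 1 library per condition no test was made. The comparisons of H2A.ZAP3 and of the line labelled H2A.ZKD with H2A.ZWT share the H2A.ZWT library. The scripts were tested on simulated data. Alternatives were other pseudocounts, filters and thresholds, median centring and summed entries. The scripts ran under Python 3.11.15 with scipy 1.17.1 for intervals, pandas 2.3.3 and numpy 2.4.6 for tables, and matplotlib 3.10.9 for plots.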

Additional observations from a re-analysis of the deposited data

Results flagged for a closer look

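In 3 of the genes with the largest changes in ESCs, the ratio of H2A.ZAP3 to H2A.ZWT had opposite directions past 1.5-fold at D0 and D3. Lefty1 had a log2 ratio of -2.04 at D0 and 0.62 at D3, Tagln -1.38 and 1.31, and Igf2 -1.18 and 1.01. The difference between the days was not tested, since each rests on 1 library per line and day.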

How the results depend on the processing

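Counts depended on the pseudocount, filter and threshold. All 30 named genes stayed past the threshold in the same direction with pseudocounts of 0.1 and 0.001, median centring, summed entries and a 2-fold threshold. List medians moved by over 0.1 in 11 or 12 lists under each other pseudocount or filter. With a pseudocount of 0.1 the genes higher and lower at D0 numbered 906 and 685 and those at D3 471 and 654, and with 0.001 they were 947 and 738 at D0 and 503 and 716 at D3. Lower replication-dependent histone genes then numbered 32 and 34. With a filter of 5 RPKM there were 373 higher and 195 lower at D0 and 155 and 187 at D3, with 5 endoderm regulators higher and 0 two-cell-like and 0 replication-dependent histone genes lower. With a 2-fold threshold 150 were higher and 82 lower at D0 and 61 and 64 at D3. The higher members were then 3 endoderm regulators, 3 fibroblast and collagen genes and 2 ATF4 genes, and the lower ones 2 naive factors, 2 two-cell-like genes and 0 replication-dependent histone genes. Alternatives chosen after seeing the data were a counting interval wholly past 1.5-fold and leaving out short RNA or chromosome 6 genes. The interval left 335 higher and 188 lower genes at D0, 7 fibroblast and collagen genes and 7 ATF4 genes higher, and 2 replication-dependent histone genes lower. Without chromosome 6 genes 557 were higher and 355 lower at D0. No replicate could be left out because each condition has 1 library, and no paired analysis was made. H2A.ZAP3 was read 1.65 times as deeply as H2A.ZWT, so that low genes are less precise in H2A.ZWT.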
